A study of Mus musculus with 5 samples.

Results

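Kruppel-like factors (KLF) are transcription factors named after the Drosophila gap gene Kruppel. The genes described here are Klf2, Klf3, Klf4, Klf5, Klf6, Klf7, Klf9, Klf10, Klf13 and Klf15, family members expressed in brain that were taken by gene symbol. All 10 symbols were found among the 55385 genes of the count tables, and all 10 were among the 19768 genes that passed the filter on low counts. The study followed gene expression in the mouse hippocampus after seizures. It used 3-month-old male C57/bl6 mice, which were treated in the dark phase of their day. Animals received 20 mg/kg kainic acid intraperitoneally, an agonist of glutamate receptors that provokes generalized seizures, and the hippocampus was collected once 1, 4 or 8 h had passed since the seizures began. The comparison group was an untreated control and not an injection of the solvent, so that the injection and the seizures cannot be told apart. The control was not matched to the time points, and the clock time of each collection is not given in the sources used here. Time since the seizures and time of day therefore cannot be told apart either. The data comprised 1 library each of total RNA from the control, the 1 h and the 8 h group and 2 libraries from the 4 h group, called replicate 1 and replicate 2. Nothing in the sources used here states that each library came from a separate animal, and p-values therefore measure only the spread between these libraries, which may be technical.

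KLF proteins share a block of zinc fingers at the C-terminal end, with which they bind GC-rich and CACCC-type sequences in promoters, and differ in the N-terminal part, which recruits coactivators or corepressors. Klf2, Klf4, Klf5, Klf6 and Klf7 are mostly known as activators, Klf9, Klf10 and Klf13 recruit the corepressor Sin3a, and Klf3 recruits the C-terminal binding proteins Ctbp1 and Ctbp2. In neurons, Klf6 and Klf7 are known to favour and Klf4 and Klf9 to restrain the growth of axons, and Klf9 takes part in the maturation of granule cells of the dentate gyrus.

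Reads counted on genes numbered between 16612225 after 8 h and 19109204 in replicate 2 after 4 h. Counts were scaled to a common library size with trimmed mean of M-values factors and are given as normalized CPM. Intervals on single libraries are exact Poisson 95% intervals, and those on ratios of libraries are exact conditional binomial intervals of the same level, and both cover counting error only. The tissue label was checked against marker genes. The 6 neuronal markers summed to 4810 normalized CPM in the control, 5028 after 1 h, 4913 and 4590 in replicate 1 and replicate 2 after 4 h and 4229 after 8 h. The 6 markers of hippocampal principal neurons, among them the granule cell gene Prox1 and the pyramidal cell gene Neurod6, summed to 763, 796, 969, 744 and 969 normalized CPM in the same order, and none was absent from any library. Zbtb20 made up 43.4% of this sum in the control, and single markers went opposite ways after 4 h, as given at the end. In such bulk tissue, fewer cells of a type and less RNA per cell cannot be told apart.

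Replicate 1 after 4 h stood apart from the other libraries. The 5 markers of the choroid plexus, an epithelium that borders the hippocampus, summed to 3990 normalized CPM in the control, 1691 after 1 h, 29.1 in replicate 1 and 4262 in replicate 2 after 4 h, and 3087 after 8 h. Transthyretin (Ttr) made up 93.8% of this sum in the control, and its normalized CPM was 3743 in the control and 16.3 in replicate 1. The pair also differed in the seizure response itself. The 8 immediate early genes, which neuronal activity switches on within minutes, summed to 257 normalized CPM in the control, 5491 after 1 h, 3908 in replicate 1, 1168 in replicate 2 and 243 after 8 h. Arc made up 57.4% of this sum in the control. In replicate 2, Fosb, Fos and Arc were at 17.1, 6.52 and 6.29 times the control, and the other listed genes between 1.02 and 1.44 times. Of all reads, 24.7% lay on no gene in the control, 29.0% after 1 h, 33.1% in replicate 1, 25.3% in replicate 2 and 30.9% after 8 h. Values after 4 h are therefore given for each library.

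**Figure D1:**
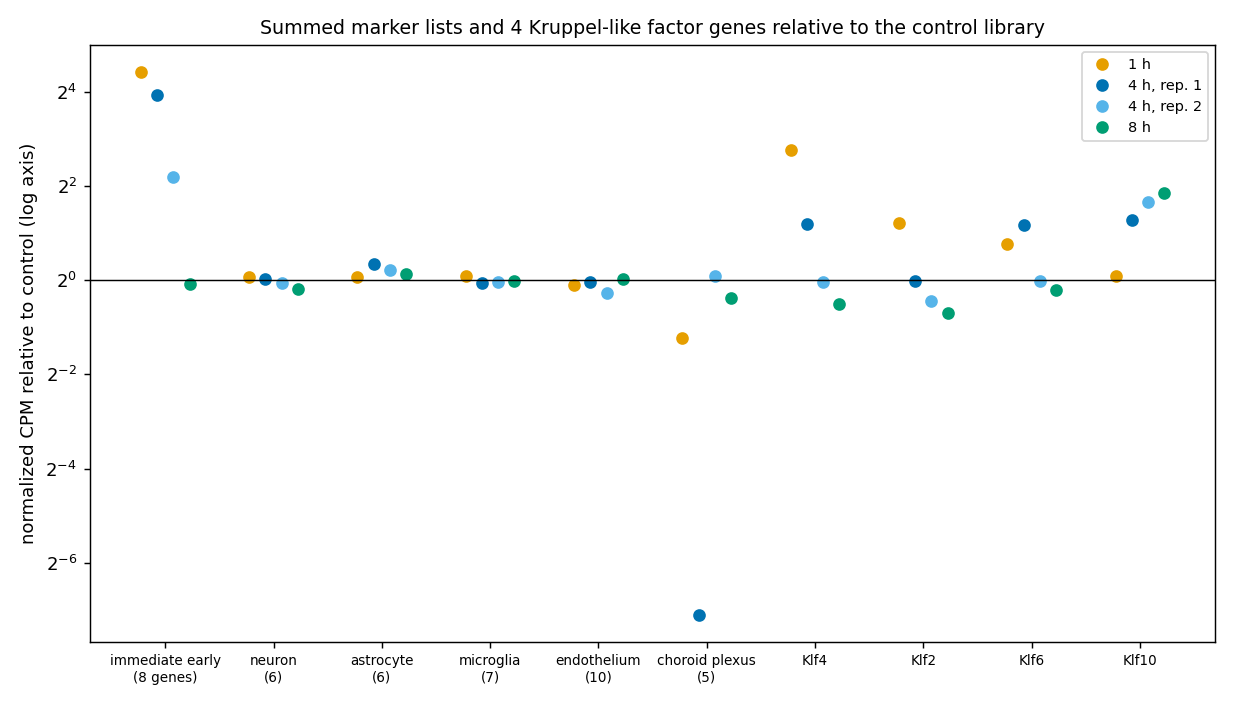
Summed normalized CPM of marker lists and normalized CPM of 4 KLF genes, each divided by its value in the control library (log axis); each point is 1 library. The choroid plexus markers of replicate 1 after 4 h lie far below the control (ratio 0.0073), whereas the immediate early genes reach a ratio of 21.4 after 1 h, 15.2 in replicate 1, 4.55 in replicate 2 and 0.949 after 8 h.

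The question of the comparisons with the control is which KLF genes differ from it after the seizures, and when. The fit was edgeR's quasi-likelihood test over all 5 libraries, in which the pair after 4 h gives the only residual degree of freedom, so that the groups of 1 library are assumed to vary like this pair. With Benjamini-Hochberg adjusted p under 0.05, this test called 0 of the 10 KLF genes after 1 h (0% of the 19768 genes tested), 0 after 4 h (0.00506%, which is 1 gene, ETV3L, named after its values were seen) and 0 after 8 h (0%). At an unadjusted p under 0.05 stood 2 KLF genes after 1 h (Klf4 and Klf9; 2.42% of all genes), 3 after 4 h (Klf3, Klf9 and Klf10; 11.6%) and 2 after 8 h (Klf10 and Klf15; 4.51%). DESeq2 called 0, 1 and 1 KLF genes at the 3 time points, in both cases Klf10, against 0.449%, 1.70% and 0.235% of the 12486, 14019 and 14019 genes to which it gave an adjusted p. With limma-voom 0 KLF genes were called at each, and 0 of all genes. In normalized CPM, at least 2-fold higher than the control were 2 KLF genes after 1 h (Klf2 and Klf4; 5.41% of all genes), 1 in both libraries after 4 h (Klf10; 4.96%) and 1 after 8 h (Klf10; 6.78%). At least 2-fold lower were 0 KLF genes after 1 h (3.80% of all genes), 0 after 4 h (1.51%) and 0 after 8 h (3.37%).

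The median log2 fold change of the 10 genes was 0.36 after 1 h, 0.35 after 4 h and -0.06 after 8 h, and that of all genes tested was -0.01, 0.01 and 0.01. A fitted value above 0 was found for 9, 6 and 5 of the 10 genes, against 9712, 10033 and 10103 of the 19768 genes. Their normalized CPM summed to 555 in the control, 769 after 1 h, 843 and 764 in replicate 1 and replicate 2 after 4 h and 659 after 8 h. These sums are led by Klf9, which made up 41.7% of the control sum. The 3 comparisons use the same control library, so that an error in this library enters all of them.

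**Figure D2:**
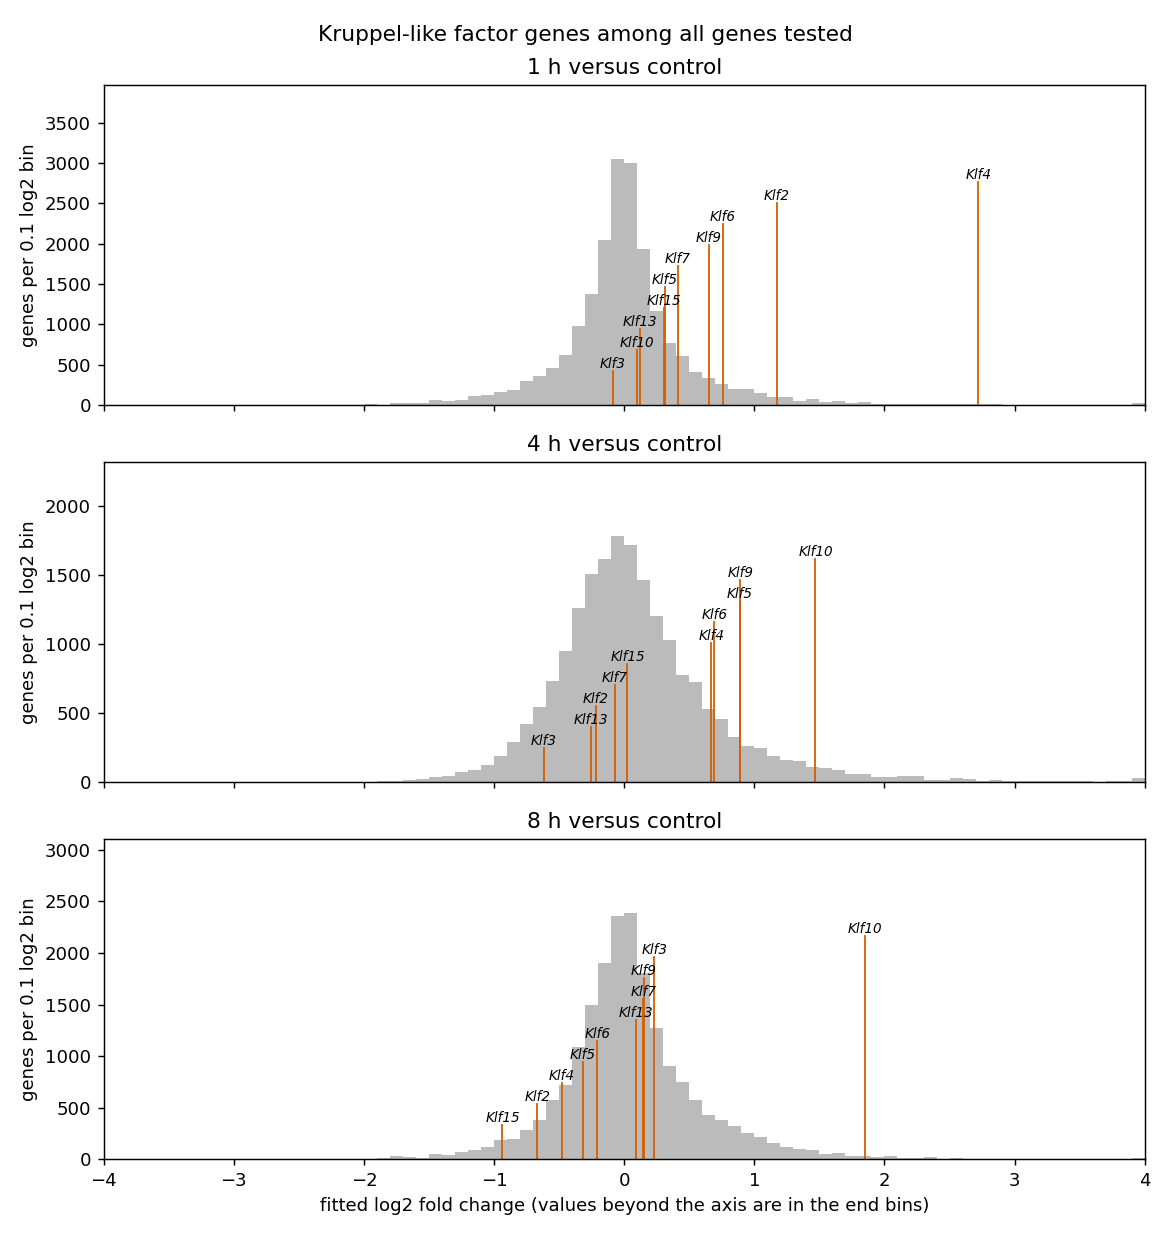
Fitted log2 fold changes of the 10 KLF genes (orange lines; heights only separate the names) over the distribution of all 19768 genes tested (grey bars, genes per bin), for each time point versus control. At 1 h the member farthest to the right is Klf4 (2.72), and at 4 and 8 h it is Klf10 (1.47 and 1.85).

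Levels of the 10 KLF genes were compared with each other only per length, as normalized CPM per kb of annotated exon. In the control, Klf9 stood at 48.1 (interval 46.7 to 49.5), followed by Klf13 at 19.4 and Klf15 at 10.7. Klf6 at 9.13, Klf10 at 7.55, Klf7 at 4.28 and Klf3 at 2.77 lay in the middle of the order. Klf2 at 1.60 (1.22 to 2.07), Klf4 at 1.00 (0.768 to 1.29) and Klf5 at 0.840 (0.672 to 1.04) were the lowest, and the intervals of Klf2 and Klf4 and those of Klf4 and Klf5 overlap. With no second control library, the spread of this order between samples was not tested. The order differed between libraries: Klf4 reached 6.82 per kb after 1 h, above Klf7 (5.70) and Klf3 (2.61), and Klf10 reached 27.3 after 8 h, above Klf13 (20.7). Klf9 was the highest in all 5 libraries.

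**Figure D3:**
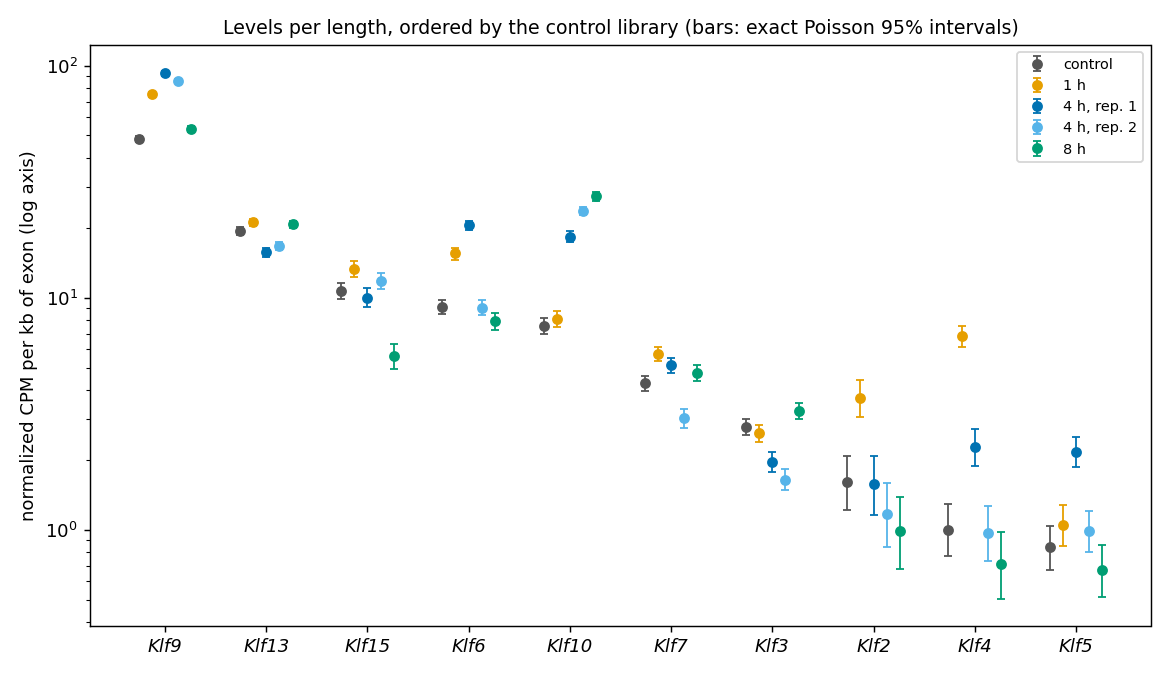
Normalized CPM per kb of exon (log axis) of the 10 KLF genes in each library, ordered by the control; points are single libraries and bars are exact Poisson 95% intervals. Klf9 lies highest in every library (48.1 in the control), and Klf4 shifts from 1.00 in the control to 6.82 after 1 h.

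Klf4 and Klf2 are best known from vascular endothelium, where the kinase Mapk7 and MEF2 factors switch them on, and Klf4 is also one of the factors that reprogram cells to pluripotency. Both are short genes, Klf4 (ENSMUSG00000003032.8) at chr4:55527143-55532466 on the minus strand and Klf2 (ENSMUSG00000055148.7) at chr8:72319033-72321656 on the plus strand of GRCm38. Their promoters are printed because these were the members at least 2-fold higher after 1 h. Promoter windows of 300 bases around the start site, from RefSeq (GRCm38.p6), were found for 8 of the 10 genes and not for Klf5 and Klf10. Letters searched on both strands were TGACG (core of the cAMP response element), CACGTG (E-box), GGGCGG (GC box), TGANTCA (AP-1) and the consensus sequences of MEF2 and of the CArG box. Capitals mark the cAMP response core, the E-box and the MEF2 consensus on either strand, the Klf4 window being chr4:55532426-55532725 (minus strand) and the Klf2 window chr8:72318812-72319111 (plus strand).
Klf4: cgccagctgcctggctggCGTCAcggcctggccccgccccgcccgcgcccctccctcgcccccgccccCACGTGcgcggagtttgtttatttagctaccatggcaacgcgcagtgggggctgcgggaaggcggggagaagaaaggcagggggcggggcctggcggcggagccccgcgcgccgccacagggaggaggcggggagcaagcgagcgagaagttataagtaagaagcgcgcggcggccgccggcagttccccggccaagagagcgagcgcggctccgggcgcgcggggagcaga
Klf2: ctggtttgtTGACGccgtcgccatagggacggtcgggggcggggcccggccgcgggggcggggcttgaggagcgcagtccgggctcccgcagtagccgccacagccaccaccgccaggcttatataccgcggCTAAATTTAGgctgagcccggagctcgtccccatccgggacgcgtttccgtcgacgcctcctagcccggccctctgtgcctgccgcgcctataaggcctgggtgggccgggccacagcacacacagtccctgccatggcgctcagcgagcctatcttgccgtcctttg
Both windows held 1 match to TGACG, which 20.8% of the 32851 windows of this length in the table hold. The windows of 4 other members, Klf3, Klf9, Klf13 and Klf15, also held at least 1, so that the match is not particular to Klf4 and Klf2. The log2 fold changes of these 4 after 1 h were -0.09, 0.65, 0.12 and 0.31 in this order. The part of the match in these values was not tested. The Klf4 window further held 1 CACGTG (7.15% of windows) and 4 GGGCGG (35.7%, and 7 of the 8 members), and that of Klf2 held 1 MEF2 consensus (3.19%) and 2 GGGCGG. Neither held a CArG box (1.63%) or TGANTCA (7.81%). The bases G and C made up 74.3% of the Klf4 window and 69.3% of the Klf2 window, against a median of 52.7% over all windows.

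The normalized CPM of Klf4 was 3.06 in the control (2.34 to 3.93), 20.8 after 1 h (18.7 to 23.0), 6.94 in replicate 1 and 2.96 in replicate 2 after 4 h, and 2.16 after 8 h (1.53 to 2.97), from 61, 366, 117, 56 and 38 reads. The 1 h library was high, replicate 1 was intermediate, and replicate 2 and the 8 h library lay within or near the interval of the control. Relative to the control, Klf4 was 6.79-fold higher after 1 h (5.17 to 9.06). The fitted log2 fold change after 1 h was 2.72 ± 0.66 (SE), with an unadjusted p of 0.00713 and an adjusted p of 1 in edgeR's quasi-likelihood test, so that it did not pass the threshold. Over all settings the adjusted p ranged from 1.85e-06, without the filter on low counts, to 1, and no other setting passed the threshold. At 4 h the ratio was 2.27 (1.65 to 3.14) in replicate 1 and 0.966 (0.660 to 1.41) in replicate 2, and the log2 fold change of 0.67 turned to -0.05 without replicate 1 and was 1.15 without replicate 2. At 8 h Klf4 stood at 0.707 of the control (0.459 to 1.08), a difference within counting error.

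Klf2 was at 2.96 normalized CPM in the control (2.25 to 3.82), 6.82 after 1 h (5.65 to 8.16), 2.91 in replicate 1 and 2.17 in replicate 2 after 4 h, and 1.82 after 8 h (1.25 to 2.57), from 59, 120, 49, 41 and 32 reads. Here the 1 h library alone lay above the control, and the intervals of both replicates overlapped that of the control. The ratio to the control was 2.30 after 1 h (1.67 to 3.20) and 0.616 after 8 h (0.387 to 0.962). The fitted log2 fold change after 1 h was 1.17 ± 0.49 (SE), with an unadjusted p of 0.0553 (adjusted p = 1, edgeR's quasi-likelihood test).

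Beside these values, the 10 endothelial markers summed to 202 normalized CPM in the control, 188 after 1 h, 196 and 168 in replicate 1 and replicate 2 after 4 h and 205 after 8 h. No marker was at least 2-fold higher or lower after 1 h, after 8 h or in both replicates after 4 h. Past 2-fold in replicate 1 alone were Cdh5 at 3.40 times the control, and Slco1a4, Abcb1a and Tie1 at 0.247, 0.401 and 0.436. In replicate 2 the same genes were at 1.35, 0.617, 0.644 and 0.699 in this order. Slco1a4 was the largest part of the sum, with 48.6 in the control. In edgeR's quasi-likelihood test 0 markers were called, and 0, 1 and 1 had an unadjusted p under 0.05 at 1, 4 and 8 h. The marker after 4 h was lower than the control and that after 8 h higher. The part of the endothelium in the values of Klf4 and Klf2 was not tested. Of the 7 genes of the pathway upstream of Klf2 and Klf4, 0 were called at 1, 4 and 8 h, and 1, 1 and 0 had an unadjusted p under 0.05. Srf, which drives activity-dependent transcription at CArG boxes, was at 38.7 normalized CPM in the control, 99.4 after 1 h, 54.0 and 40.4 after 4 h and 37.8 after 8 h. Mapk7 was at 14.6, 10.6, 31.8, 30.3 and 22.7 in the same order, below the control after 1 h and above it in both replicates after 4 h. Its kinase Map2k5 and the factor Mef2d had log2 fold changes between -0.46 and 0.26 over the 3 time points.

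**Figure D4:**
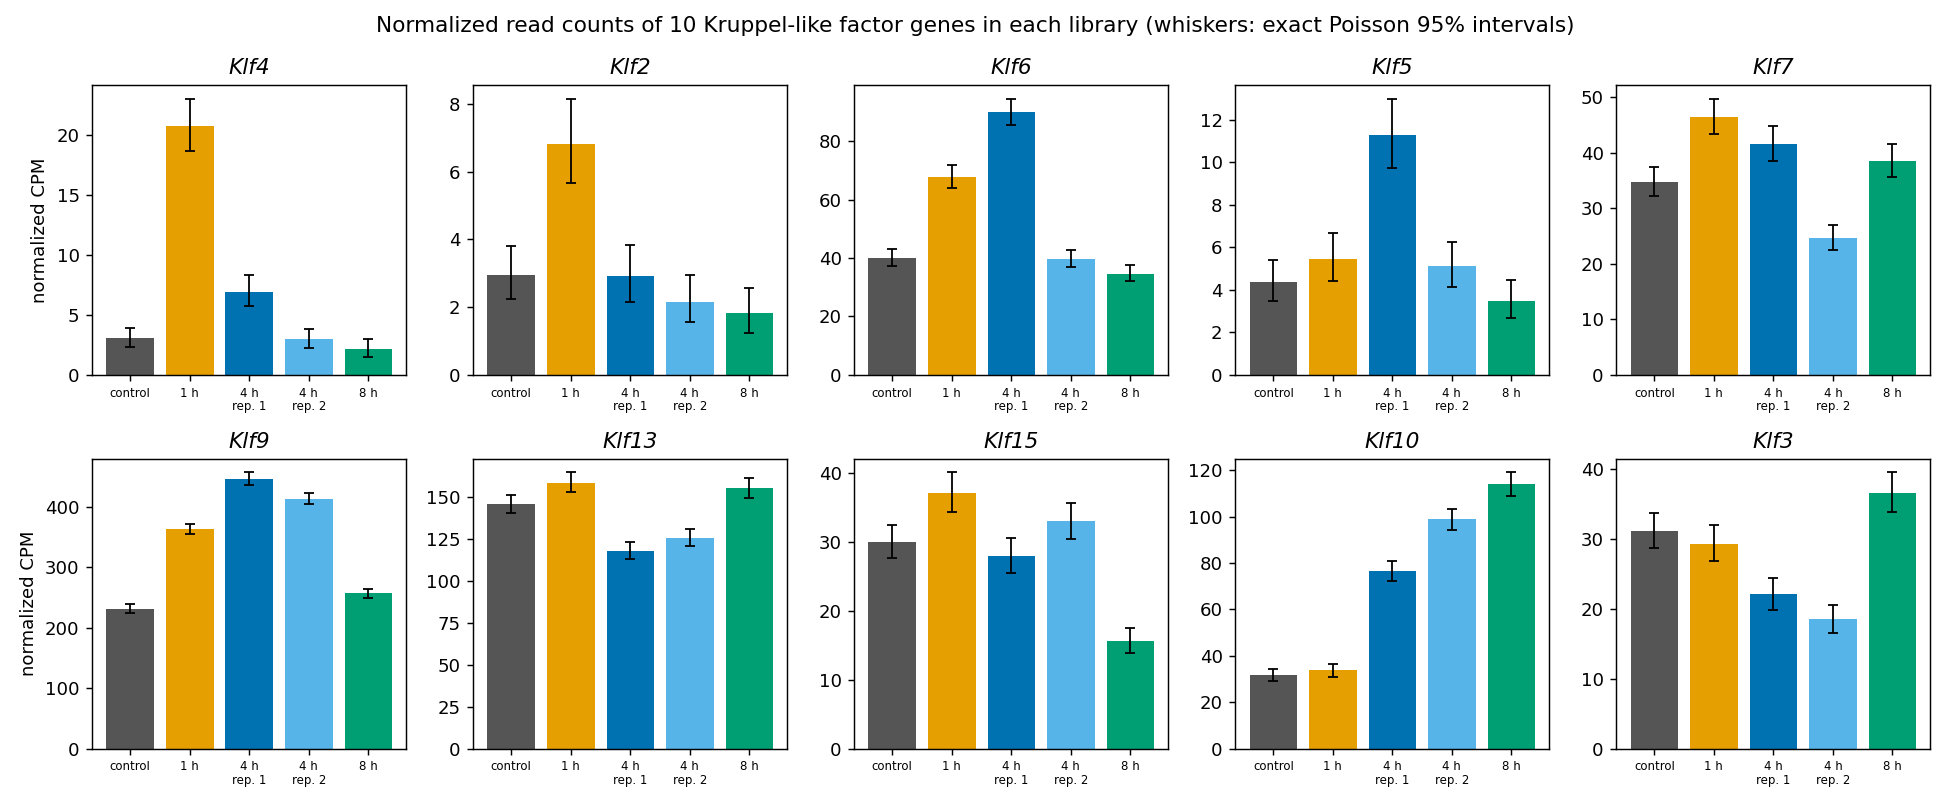
Normalized CPM of the 10 KLF genes in each library; bars are single libraries and whiskers exact Poisson 95% intervals. Klf4 and Klf2 are highest after 1 h (20.8 and 6.82), Klf6 and Klf5 in replicate 1 after 4 h (89.9 and 11.3), Klf9 after 4 h (446 and 413) and Klf10 after 8 h (114), and Klf15 is lowest after 8 h (15.6).

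Klf6, Klf7 and Klf5 are the other activators. Klf6, at chr13:5861482-5870394 on the plus strand, is an injury- and growth-related factor. Its normalized CPM was 40.1 in the control (37.4 to 43.0), 67.9 after 1 h (64.1 to 71.8), 89.9 in replicate 1 and 39.8 in replicate 2 after 4 h, and 34.7 after 8 h (32.0 to 37.6). The 1 h library and replicate 1 were high, and replicate 2 equalled the control within counting error. The ratio to the control was 1.69 after 1 h (1.55 to 1.85), 2.24 in replicate 1 (2.06 to 2.44) and 0.993 in replicate 2 (0.898 to 1.10). The log2 fold change after 4 h was 0.69 ± 0.48 (SE), -0.01 without replicate 1 and 1.16 without replicate 2, and the adjusted p was 0.613 in edgeR's quasi-likelihood test.

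Klf5, which supports proliferation in epithelia, was measured from few reads, between 61 after 8 h and 190 in replicate 1. It stood at 4.37 normalized CPM in the control (3.50 to 5.39), 5.46 after 1 h, 11.3 in replicate 1 (9.73 to 13.0) and 5.12 in replicate 2 after 4 h, and 3.48 after 8 h. Replicate 1 was high, at 2.58 times the control (1.99 to 3.37), whereas the intervals of the ratios after 1 h (0.925 to 1.69), in replicate 2 (0.870 to 1.59) and after 8 h (0.564 to 1.12) included 1. The log2 fold change after 4 h was 0.89 with both replicates, 0.23 without replicate 1 and 1.35 without replicate 2.

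For Klf4, Klf5 and Klf6, the level in replicate 1 was 2.35, 2.20 and 2.26 times that in replicate 2. Replicate 1 is also the library with the larger immediate early gene sum and with nearly no choroid plexus markers and the largest share of reads on no gene, and the part of these in its values was not tested. Over all genes, 2322 of the 19702 genes with reads in both libraries differed at least 2-fold within the pair.

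Klf7 had 34.8 normalized CPM in the control, 46.4 after 1 h (43.2 to 49.7), 41.5 and 24.6 after 4 h and 38.5 after 8 h. Its libraries after 4 h lay on either side of the control, and the log2 fold change of -0.07 was -0.50 without replicate 1 and 0.26 without replicate 2. Its value is uncertain in another respect. Of its 8131 exon bases, 3200 are also covered by exons of genes on the opposite strand, and although the library kit kept the strand, the setting used in counting is not given in the sources used here.

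Klf9, Klf13 and Klf10 belong to the Sin3a-binding repressors. Klf9 (ENSMUSG00000033863.2), a gene induced by glucocorticoids and thyroid hormone, lies at chr19:23141226-23168134 on the plus strand. It stood at 231 normalized CPM in the control (225 to 238), 363 after 1 h (354 to 372), 446 (436 to 456) and 413 (404 to 422) in replicate 1 and replicate 2 after 4 h, and 257 after 8 h (249 to 264). The 1 h library and both 4 h libraries lay above the control and the 8 h library was close to it. Unlike Klf4, Klf5 and Klf6, the pair after 4 h was alike, with a mean of 430 ± 23.3 (SD, n = 2) and a ratio of 1.08 between the replicates. The log2 fold change was 0.65 ± 0.19 (SE) after 1 h and 0.89 ± 0.17 after 4 h, with adjusted p of 1 and 0.259 in edgeR's quasi-likelihood test. Over all settings the adjusted p after 4 h ranged from 4.77e-04, without the filter, to 0.327. Without replicate 1 the log2 fold change after 4 h was 0.84, and without replicate 2 it was 0.95.

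Genes that share hormonal inputs with Klf9 were examined as lists. Of the 10 glucocorticoid-induced genes and receptors, 0 were called at any time point, and 4, 4 and 1 had an unadjusted p under 0.05 at 1, 4 and 8 h, of which 4, 3 and 0 were higher than the control. The lower genes were Nr3c1 after 4 h and Tsc22d3 after 8 h, the latter with a log2 fold change of 0.46, 0.41 and -0.93. Their median log2 fold change was 0.40, 0.64 and -0.20. Sgk1, a kinase that acts on ion channels, was at 118 normalized CPM in the control, 396 after 1 h, 416 and 343 after 4 h and 115 after 8 h. Errfi1, an inhibitor of EGF receptors, was at 45.4, 539, 361, 143 and 55.1, the clock gene Per1 at 35.8, 168, 74.0, 42.8 and 18.1, and the phosphatase Dusp1 at 8.08, 87.8, 38.4, 8.35 and 5.47. All 4 are also known as genes of the seizure or activity response. The receptor gene Nr3c1 had a log2 fold change of -0.07, -0.52 and -0.19.

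In the thyroid hormone list of 6 genes, 1, 1 and 0 were at least 2-fold higher and 1, 1 and 1 at least 2-fold lower at 1, 4 and 8 h, and 0 were called. The lower gene was Dio3, which inactivates thyroid hormone, with 59 reads in the control, 7 after 1 h, 8 and 16 after 4 h and 1 after 8 h, and its ratio to the control after 8 h was 0.0192 (0.000479 to 0.111). Dio2, which makes active thyroid hormone in astrocytes, was at 77.0 normalized CPM in the control, 158 after 1 h, 241 and 195 after 4 h and 81.8 after 8 h. Hr, a corepressor induced by the hormone, was at 9.99, 10.2, 20.3, 13.0 and 17.6. The receptor genes Thra and Thrb had log2 fold changes between -0.46 and -0.02.

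Klf13, at chr7:63886351-63938915 on the minus strand, varied least, with a highest over lowest ratio of 1.34. Its normalized CPM was 146 in the control, 159 after 1 h, 118 and 126 after 4 h and 156 after 8 h. Both libraries after 4 h lay below the control, with a log2 fold change of -0.26 ± 0.16 (SE) and an adjusted p of 0.582 in edgeR's quasi-likelihood test.

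Klf10 (ENSMUSG00000037465.10), first described as an early gene of TGF-beta signalling, lies at chr15:38291463-38300706 on the minus strand. It had 629 reads in the control, 594 after 1 h, 1288 and 1871 after 4 h and 2000 after 8 h. In normalized CPM it was 31.6 in the control (29.1 to 34.1), 33.8 after 1 h (31.1 to 36.6), 76.4 (72.3 to 80.7) and 98.8 (94.4 to 103) in replicate 1 and replicate 2 after 4 h, and 114 after 8 h (109 to 119). The 1 h library overlapped the control, and both 4 h libraries and the 8 h library lay above it without overlap. Relative to the control, Klf10 was 2.42-fold (2.20 to 2.67) and 3.13-fold (2.86 to 3.43) higher after 4 h and 3.61-fold higher after 8 h (3.30 to 3.95). The mean after 4 h was 87.6 ± 15.9 (SD, n = 2), and here replicate 2, the library with the smaller immediate early gene sum, was the higher of the pair.

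The log2 fold change of Klf10 was 0.10 after 1 h, 1.47 ± 0.23 (SE) after 4 h and 1.85 ± 0.26 after 8 h. In edgeR's quasi-likelihood test the unadjusted p was 0.00110 after 4 h and 5.94e-04 after 8 h, and the adjusted p was 0.245 and 0.756. In DESeq2 the adjusted p was 0.00191 and 0.00185, whereas over all settings it ranged from 7.88e-08 to 0.327 after 4 h and from 2.15e-09 to 0.997 after 8 h. Leaving out replicate 1 gave a log2 fold change after 4 h of 1.64, and leaving out replicate 2 gave 1.27.

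Around Klf10, 0 of the 10 genes of the TGF-beta list were called, and 2, 3 and 2 had an unadjusted p under 0.05 at 1, 4 and 8 h, all of them higher. The median log2 fold change was 0.16, 0.39 and 0.51. Smad7, which limits the signal, was at 12.9 normalized CPM in the control, 58.5 after 1 h, 84.5 and 33.9 after 4 h and 18.0 after 8 h, and the ligand Tgfb3 was at 11.5, 16.0, 15.2, 14.2 and 24.0 in the same order. Tgfb1 had log2 fold changes of 0.17, 0.43 and 0.56. Smad7 was high after 1 h, when Klf10 equalled the control within counting error. The part of TGF-beta signalling in the values of Klf10 was not tested.

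Klf3, which binds the Ctbp corepressors, was at 31.2 normalized CPM in the control (28.8 to 33.7), 29.3 after 1 h, 22.1 (19.9 to 24.4) and 18.5 (16.6 to 20.5) after 4 h and 36.6 after 8 h. Both libraries after 4 h were below the control and the 8 h library was above it. The log2 fold change after 4 h was -0.62 ± 0.23 (SE), -0.75 without replicate 1 and -0.50 without replicate 2, with an adjusted p of 0.408 in edgeR's quasi-likelihood test. Exons of an opposite-strand gene cover 404 of its 11243 exon bases.

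Klf15 (ENSMUSG00000030087.11) controls amino acid and glucose metabolism and follows the circadian clock and glucocorticoids. It lies at chr6:90462576-90475238 on the plus strand. Its promoter window at chr6:90462326-90462625 (plus strand) is shown because it was the member farthest below the control after 8 h; capitals mark TGACG and CACGTG on either strand, 1 pair of which overlaps.
Klf15: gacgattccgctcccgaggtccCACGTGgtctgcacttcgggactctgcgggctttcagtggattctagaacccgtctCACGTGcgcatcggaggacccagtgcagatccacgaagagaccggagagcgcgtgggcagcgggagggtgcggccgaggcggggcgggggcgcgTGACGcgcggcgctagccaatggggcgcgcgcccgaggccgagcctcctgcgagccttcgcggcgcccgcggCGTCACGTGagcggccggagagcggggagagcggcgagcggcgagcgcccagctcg
The window held 3 CACGTG and 2 TGACG, the largest number of CACGTG among the 8 windows, in which Klf4 and Klf6 held 1 each. Of all windows, 7.15% held at least 1 CACGTG and 20.8% at least 1 TGACG. The bases G and C made up 73.3% of the Klf15 window. The part of these matches in the values of Klf15 was not tested. Klf15 stood at 30.0 normalized CPM in the control (27.6 to 32.5), 37.1 after 1 h (34.3 to 40.1), 27.9 and 33.0 after 4 h and 15.6 after 8 h (13.8 to 17.6), from 597, 653, 471, 625 and 274 reads. The 8 h library was the lowest and lay apart from the other 4. Its ratio to the control was 0.521 (0.450 to 0.602), just short of 2-fold lower. The log2 fold change after 8 h was -0.94 ± 0.27 (SE), with an unadjusted p of 0.0149 and an adjusted p of 0.999 in edgeR's quasi-likelihood test. At 4 h the log2 fold change was 0.02, and it was below 0 with library size alone (-0.09) and without replicate 2 (-0.10).

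Klf15 and Klf9 are also expressed by astrocytes. The 6 astrocyte markers summed to 3727 normalized CPM in the control, 3917 after 1 h, 4696 and 4305 after 4 h and 4090 after 8 h, with Slc1a2 the largest part of each sum. In edgeR's quasi-likelihood test 0 were called, and 0, 3 and 2 had an unadjusted p under 0.05 at 1, 4 and 8 h, of which 0, 3 and 1 were higher. After 4 h all 6 had a log2 fold change above 0, and the 3 were Gfap, the filament gene of reactive astrocytes, at 2.70 and 2.31 times the control, Aqp4 at 1.60 and 1.33 and Aldh1l1 at 1.44 and 1.31. Single markers differed in direction after 8 h, where Gja1, the gap junction gene, was at 98.5 against 194 in the control, and Gfap was at 587 against 221. The part of these in the values of Klf15 and Klf9 was not tested.

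Known KLF target genes were taken as a further list. Of 15 genes, 14 were tested. None was called, and 2, 4 and 3 had an unadjusted p under 0.05 at 1, 4 and 8 h, of which 2, 3 and 1 were higher than the control. The lower genes were Kcnip2 after 4 h, with a log2 fold change of -0.80, and Gap43 and L1cam after 8 h, with -0.88 and -0.75. Their median log2 fold change was 0.13, 0.06 and -0.01. The cell cycle inhibitor Cdkn1a was at 2.71 normalized CPM in the control, 14.6 after 1 h, 51.9 and 26.4 after 4 h and 9.06 after 8 h. Plaur, the urokinase receptor, had 3 reads in the control, 54 after 1 h, 72 and 14 after 4 h and 16 after 8 h, and its ratio to the control after 1 h was 20.4 (6.61 to 102). The glucose transporter gene Slc2a4 was at 0.502, 0.966, 1.13, 2.11 and 1.20, and thrombomodulin (Thbd), an endothelial target of Klf2 and Klf4, was at 8.63, 13.0, 21.7, 9.35 and 16.5. The 10 genes of KLF cofactors had median log2 fold changes of -0.07, -0.05 and 0.03, and 0 were at least 2-fold higher or lower. None was called, and 0, 1 and 0 had an unadjusted p under 0.05 at 1, 4 and 8 h. The 1 gene was Hdac1, lower after 4 h with a log2 fold change of -0.78. Hdac1 was at 26.1, 20.5, 12.9, 17.5 and 16.6, and Ctbp2, Kat2b and Sin3b had log2 fold changes between -0.40 and 0.45.

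Of the rest of the family, Klf8, Klf11, Klf12 and Klf16 were tested, and Klf1, Klf14 and Klf17 had 4 reads or fewer in every library. None of the 4 was called or at least 2-fold higher or lower. Klf12 was at 36.2 normalized CPM in the control, 32.6 after 1 h, 29.1 and 26.3 after 4 h and 23.4 after 8 h, with a log2 fold change after 8 h of -0.63 and an unadjusted p of 0.0493. Of the 9 related SP factors 8 were tested, and 1 was at least 2-fold higher after 1 h (Sp8) and 1 after 4 h (Sp7). Sp7, also called osterix and known from bone-forming cells, had 22 reads in the control, 20 after 1 h, 417 and 290 after 4 h and 38 after 8 h. It was 22.4-fold (14.6 to 36.1) and 13.9-fold (8.99 to 22.5) higher than the control in replicate 1 and replicate 2. Its log2 fold change after 4 h was 4.05 ± 0.50 (SE), with an adjusted p of 0.242 in edgeR's quasi-likelihood test.

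Genes whose pattern over the 5 libraries was most like that of a member were ranked by the root mean square difference of centred log2 normalized CPM among 16192 genes, for the 6 members that span at least 2-fold. Nearest to Klf4 were Dusp6 (0.228), Egr1 (0.237) and Ppp1r15a (0.243), and nearest to Klf2 were Gm37310 (0.066), Lrmp (0.201) and Tob1 (0.211). Klf6 had Gm43319 (0.062), Gm44243 (0.091) and Dnajb4 (0.096), and Klf5 had Pdp1 (0.078), Vps13a (0.087) and Slc17a6 (0.091). For Klf10 they were Hpdl (0.154), Prss23 (0.158) and Gldn (0.182), and for Klf15 they were Acss1 (0.066), Gm1604a (0.077) and 1700047M11Rik (0.085). Egr1 is an immediate early gene and was at 29.1, 215, 99.0, 30.9 and 19.0 normalized CPM. As for Klf4, its 1 h library was the highest, followed by replicate 1 after 4 h, and its 8 h library was the lowest. With 5 libraries, a small distance is a description of these samples.

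Reads from one KLF gene could in part be counted on another only where their transcripts share long stretches. Among the 10 genes, the longest stretch shared by annotated transcripts was 36 bases (Klf3 and Klf13), followed by 26 bases (Klf6 and Klf7) and 24 bases (Klf5 and Klf9).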

How the data were processed

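The authors deposited 1 table per library with whole-number read counts per gene, without normalization. Per the submitters' processing notes, reads were aligned with STAR 2.5.1b to GRCm38.p4 and counted with HTSeq; neither the strand setting nor the annotation release is given in the sources used here. Summary lines, left out here, held between 24.7% (control) and 33.1% (replicate 1 after 4 h) of reads on no gene, between 1.26% and 1.52% ambiguous and between 9.67% and 11.6% aligned more than once. Genes were filtered with filterByExpr, normalized with TMM and fitted with edgeR 4.0.16 (glmQLFit, glmQLFTest) in R 4.3.3, with fold changes at a prior count of 2, Benjamini-Hochberg adjustment over 19768 genes and a threshold of 0.05. Each SE is the absolute log2 fold change, fitted without a prior count, divided by the square root of the F statistic of that test. The SE therefore adds no measure of spread beyond the test. The common dispersion was 0.0565. A count of 3 was the floor (between 0.151 and 0.178 normalized CPM). Alternatives used median-of-ratios factors, library size alone, no filter, DESeq2 1.42.0, limma-voom (limma 3.58.1) and 1 library of the 4 h pair. The scripts were tested on simulated data. Figures used Python 3.11.15 and matplotlib 3.10.9. Gene models are from GENCODE M21 (GRCm38), and exon length joins all annotated transcripts. The members and lists were chosen with earlier results of these data known. Named were all KLF and SP genes and the 3 genes most like a member. From each list, up to 4 genes with the largest absolute mean log2 ratio and at least 1 normalized CPM were named. Further genes were named after their values were seen or as the largest part of a marker sum. These were Nr3c1, Tsc22d3, Dio3, Kcnip2, Gap43, L1cam, Cdh5, Abcb1a, Tie1, Gja1, Gfap, Aqp4, Aldh1l1, Slc1a2, Ttr, Slco1a4, Zbtb20, Prox1, Neurod6 and Dsp. Values of some listed genes are not reported here.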

Additional observations from a re-analysis of the deposited data

How the results depend on the processing

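The number of genes called in edgeR's quasi-likelihood test was 0 after 1 h, 1 after 4 h and 0 after 8 h, with 478, 2291 and 892 genes at an unadjusted p under 0.05. With library size alone 57, 237 and 22 genes were called, without a filter on low counts 285, 1300 and 279 (of 32732 genes), and with DESeq2 56, 238 and 33. Median-of-ratios factors called 0, 0 and 0, as did limma-voom, so that the single call after 4 h was lost in both. With library size alone 189 of the calls after 4 h were higher and 48 lower, and the median log2 fold change of all genes after 4 h was -0.11. The cause was not tested.

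Of 150 values of KLF genes under the 5 other settings, 141 kept direction and did not pass the threshold, 8 kept direction and passed it, and 1 changed direction. The 141 include Klf2 after 1 h in DESeq2, which without an adjusted p has no side of the threshold. Passing it were Klf4 after 1 h (2.72) and Klf9 after 4 h (0.88) without the filter, and Klf10 after 4 h (1.35, 1.46 and 1.48) and after 8 h (1.87, 1.83 and 1.85) with library size alone, without the filter and with DESeq2. Klf15 after 4 h turned to -0.09 with library size alone. Leaving out either library after 4 h left no residual degree of freedom and no test. It moved the log2 fold change between -0.05 and 1.15 for Klf4 and between -0.01 and 1.16 for Klf6. For Klf7 it moved between -0.50 and 0.26, and for Klf15 between -0.10 and 0.14. Under the other scalings, the numbers of KLF genes at least 2-fold higher or lower equalled those reported. DESeq2 gave no adjusted p for Klf2 after 1 h. No paired analysis was possible because the groups share fewer than 2 replicate numbers.

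Depth limits Klf2, Klf4 and Klf5 most, with between 32 and 120, 38 and 366, and 61 and 190 reads. The control, 1 h and 8 h groups have no replicate, so that their values have no check of the spread between samples other than that taken from the pair after 4 h.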

Other observations

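Contrasts between the time points in the same fit, added after the values were seen, gave adjusted p between 0.390 and 0.996 for the 10 KLF genes in edgeR's quasi-likelihood test (Benjamini-Hochberg), so that the differences in timing between Klf4, Klf9 and Klf10 are given as values of single libraries. Among the other markers, the 6 oligodendrocyte markers summed to 3338 normalized CPM in the control, 4161 after 1 h, 3932 and 5066 after 4 h and 3299 after 8 h, the 7 microglial markers to 280, 297, 269, 272 and 275, and the 6 markers of pericytes and smooth muscle to 136, 132, 127, 139 and 117. The 3 markers of oligodendrocyte precursors summed to 130.2, 141.5, 132.8, 162.3 and 118.3, the 4 of meninges and fibroblasts to 72.4, 41.4, 62.2, 65.0 and 54.2, and the 4 of blood to 110.2, 94.1, 188, 125 and 149.

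Within the markers of hippocampal principal neurons, single genes went opposite ways after 4 h. Prox1 was at 59.9 normalized CPM in the control and at 171 and 120 in replicate 1 and replicate 2, whereas Neurod6 was at 144 in the control and at 60.8 and 67.0, and Dsp, a desmosome gene of granule cells, at 72.1 in the control and at 4.33 and 13.6. None of the 3 passed the threshold in edgeR's quasi-likelihood test (adjusted p = 0.275, 0.242 and 0.259, Benjamini-Hochberg).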
